A study of Mus musculus with 6 samples.

Results

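The cells described here are CD4 T cells of the mouse colonic lamina propria that were sorted as tdTomato+GFP+ and that fell into either of 2 transcriptional fates, one Th2-like and one Th17-like. The Th2-like side is cluster 0 of the authors' phenograph clustering, with 876 cells, and the Th17-like side is clusters 1, 2, 3, 12 and 13 together, with 5665 cells. Both sides held 6541 of the 8765 tdTomato+GFP+ cells with a hashed replicate, of 18874 such cells and 23595 cells in the whole series. UMI counts were summed per replicate and side, so that each of the 3 hashed replicates gave a Th2-like and a Th17-like value that form a pair. The question set here is how the cells of these fates differ within 1 sort gate, whether that difference is the same in the tdTomato-GFP- gate, and which T cell clones hold cells of both fates.

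All mice were Foxp3{delta}EGFPiCre/WT and carried R26lsl-tdTomato/wt, so the tdTomato-GFP- cells used for comparison come from the same genotype as the tdTomato+GFP+ cells. This joins a Foxp3 allele with EGFP and iCre to a Rosa26 tdTomato reporter that Cre switches on. The sources used here do not explain the delta and do not give age, sex or treatment. About 5000 sorted cells per replicate were loaded. The replicates of each gate, called biological triplicates in the design, were told apart by TotalSeq-C hashtag antibodies and shared 1 droplet lane. Each gate thus has a lane of its own, and an effect of the gate and an effect of the lane cannot be told apart wherever gates are compared directly. The 2 lanes shared 174 cell barcodes.

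Foxp3, on the X chromosome at X:7573644-7595245 (GRCm38), encodes the master transcription factor of regulatory T cells, and its reporter alleles are used to sort them. Th2 cells are helper cells that depend on the transcription factor GATA3 and secrete IL-4, IL-5 and IL-13, the cytokines of responses to worms and allergens. Th17 cells secrete IL-17A and IL-17F, which recruit neutrophils and act on the gut epithelium.

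A clone of T cells is recognised by its rearranged receptor, since the joints of the V, D and J segments of the alpha and beta chains are inherited by all daughters. The receptor library, prepared apart from the transcript library of the same cells, gave an alpha and a beta junction in 591 Th2-like and 4019 Th17-like tdTomato+GFP+ cells. A clonotype was counted as 1 nucleotide junction pair within 1 replicate, and 114 of 1200 clonotypes held cells on both sides. The 5 with the most cells on their smaller side are shown because they are the clones with the most cells to compare; all 5 came from replicate 2. Their junctions run 5′ to 3′ from the conserved cysteine codon, in lower case where the bases match the germline V or J segment of the GRCm38 annotation and in capitals where they do not, which leaves the D segment and added bases of the joint in capitals. Germline V segments have near-identical copies, so the names are those the authors' receptor table gives. Clonotype 1 had 9 Th2-like and 154 Th17-like cells and joined TRAV6N-7 (chr14:53318798-53319284, plus strand) to TRAJ22, and TRBV19 (chr6:41178375-41179048, plus strand) to TRBJ1-3. Clonotype 2 had 6 Th2-like and 89 Th17-like cells, with TRAV14-2 and TRAJ45, TRBV15 and TRBJ2-7. Clonotype 3 had 5 Th2-like and 16 Th17-like cells, with TRAV10 and TRAJ40, TRBV26 and TRBJ1-2. Clonotype 4 had 5 Th2-like and 6 Th17-like cells, with TRAV14-3 and TRAJ43, TRBV16 and TRBJ2-5. Clonotype 5 had 14 Th2-like and 4 Th17-like cells, with TRAV7-5 and TRAJ40, TRBV15 and TRBJ2-5.
Clonotype 1 alpha: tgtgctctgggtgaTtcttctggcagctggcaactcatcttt
Clonotype 1 beta: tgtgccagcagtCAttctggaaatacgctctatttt
Clonotype 2 alpha: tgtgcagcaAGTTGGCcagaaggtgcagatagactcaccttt
Clonotype 2 beta: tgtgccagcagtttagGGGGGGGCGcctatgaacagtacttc
Clonotype 3 alpha: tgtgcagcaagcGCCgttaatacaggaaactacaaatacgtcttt
Clonotype 3 beta: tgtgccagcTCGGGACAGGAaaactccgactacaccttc
Clonotype 4 alpha: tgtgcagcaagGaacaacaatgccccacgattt
Clonotype 4 beta: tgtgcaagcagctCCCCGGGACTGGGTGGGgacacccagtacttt
Clonotype 5 alpha: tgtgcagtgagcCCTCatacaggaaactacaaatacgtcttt
Clonotype 5 beta: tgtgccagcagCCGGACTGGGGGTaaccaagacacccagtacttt

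Replicates 1, 2 and 3 held 98, 494 and 284 Th2-like cells and 1276, 2985 and 1404 Th17-like cells. Their summed UMIs, hashtags left out, were 413544, 2172298 and 1218173 on the Th2-like side and 5031071, 12473269 and 5326934 on the Th17-like side. The median cell had 3948, 4150.5 and 3929 UMIs on the Th2-like side and 3684.5, 3520 and 3347 on the Th17-like side. The Th2-like sum of replicate 1 is the shallowest, and a count of 0 there allows up to 7.25 CPM (counts of a gene per 1e6 UMIs of the sum), against 0.241 CPM in the deepest sum, the Th17-like one of replicate 2. These limits, and the intervals below, cover counting error only. Hashtag assignment was also least clear in replicate 1: the median share of the main hashtag was 0.908 and 0.901 on the Th2-like and Th17-like side there, 0.974 on both sides in replicate 2, and 0.935 and 0.934 in replicate 3.

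Among cells of both sides the Th2-like share was 7.13, 14.2 and 16.8% in the tdTomato+GFP+ gate and 60.8, 70.9 and 61.3% in the tdTomato-GFP- gate. The ranges did not overlap, with means of 12.7 ± 5.01% and 64.4 ± 5.72% (SD, n = 3 each). The exact permutation test gave p = 0.1, the smallest p that 3 against 3 allows. Counted once per clonotype instead of once per cell, the tdTomato+GFP+ share averaged 31.3%. Sorting fixed the number of cells per gate, and the shares are shares of sorted cells.

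The Th2-like and Th17-like cells were separated by the authors' clustering of the same transcripts, so differences between the sides are given as a description, without a test. A gene is counted as apart where the fitted fold was at least 2 and the CPM lay in the same direction in all 3 replicates. Of 9974 genes tested, 440 were higher in Th2-like cells (4.41%), 390 were lower (3.91%), and both directions together made 8.32%, with a median log2 fold of -0.01 over all genes. Rps4x lay just inside the fold limit at a log2 fold of 1.00, and Snx18 just outside it.

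Foxp3 was measured on both sides. Its level was 113, 93.8 and 84.7 CPM in Th2-like cells and 154, 134 and 131 CPM in Th17-like cells of the gate. The Th2-like values lay below the Th17-like ones in every replicate, with a log2 fold of -0.54 ± 0.10 (SE). At least 1 Foxp3 UMI was seen in 27.7 ± 1.95% of Th2-like and 36.4 ± 2.34% of Th17-like cells (SD, n = 3 each). In cluster 9 of the same gate the share was 15.1 ± 4.48% (SD, n = 3), from 1 of 6, 2 of 20 and 5 of 27 cells. These cells were sorted by the same reporters. Whether they express Foxp3 was not tested, so they give no background for it. Cluster 9 bore the markers of naive and central memory cells, with Lef1 at 415 CPM against 17.2 CPM in Th2-like and 8.23 CPM in Th17-like cells. After thinning each cell to 2000 UMIs the shares were 16.7% and 23.3%, against 9.95% in cluster 9. Transcript counts do not tell the allele with EGFP and iCre from the wild-type one.

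The fates bore the markers they are named for, with exceptions. Cells of both sides carried T cell transcripts: Cd3e had 943, 1108 and 1126 CPM in Th2-like cells and 1763, 1693 and 1617 CPM in Th17-like cells, and Cd4 had 306, 340 and 347 CPM in Th2-like cells and 536, 557 and 538 CPM in Th17-like cells. Of 7 tested markers of group 2 innate lymphoid cells, which overlap the type 2 list but come with no Cd3e, 5 were higher in Th2-like cells. Of the 6 Th2 markers, Il13, Il4, Il5, Gata3 and Il1rl1 were higher in Th2-like cells and Areg was not apart. Of the Th17 markers, Il17a, Il17f and Ccl20 were lower in Th2-like cells, and Il23r and Ccr6 were within the fold limit. Ccr6, the chemokine receptor often used to mark Th17 cells, was higher in Th2-like cells in every replicate.

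Il13, which encodes a signature cytokine of type 2 immunity (11:53631324-53634702), had 299, 733 and 1067 CPM in Th2-like cells and 0.964, 30.8 and 42.4 CPM in Th17-like cells. The groups did not overlap, but replicate 1 lay well below the others on both sides. The log2 fold was 4.90 ± 0.60 (SE). Il4 had 127, 777 and 887 CPM in Th2-like cells and 7.33, 105 and 144 CPM in Th17-like cells, a log2 fold of 2.91 ± 0.23 (SE). Here the Th2-like value of replicate 1 lay below the Th17-like value of replicate 3, so the order held only within replicates. Il5, the eosinophil growth factor, had 17.1, 74.7 and 82.1 CPM in Th2-like cells and 0.193, 7.06 and 8.66 CPM in Th17-like cells.

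Gata3, the master regulator of the type 2 programme, had 142, 387 and 478 CPM in Th2-like cells and 33.6, 51.6 and 55.7 CPM in Th17-like cells, a log2 fold of 2.82 ± 0.15 (SE). Receptors for the alarmin cytokines followed: Il1rl1, the IL-33 receptor, had 19.6, 85.0 and 170 CPM in Th2-like cells and 0, 3.18 and 4.15 CPM in Th17-like cells. Il17rb, the IL-25 receptor, had 17.1, 63.4 and 75.2 CPM in Th2-like cells and 0, 1.71 and 1.80 CPM in Th17-like cells. Both receptors were lowest in replicate 1 on both sides, and neither overlapped between sides. Areg, which encodes the tissue repair factor amphiregulin, did not separate the fates, at 397, 1078 and 1299 CPM in Th2-like cells and 1263, 902 and 859 CPM in Th17-like cells (log2 fold -0.12 ± 0.63, SE).

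Il17a (1:20730905-20734496) had 556, 501 and 252 CPM in Th2-like cells and 16956, 15604 and 15189 CPM in Th17-like cells. The Th17-like values lay close together, and the log2 fold was -5.26 ± 0.34 (SE). Il17f, its neighbour on chromosome 1, had 135, 99.7 and 75.2 CPM in Th2-like cells and 2436, 1757 and 1897 CPM in Th17-like cells. Ccl20, the ligand of CCR6, had 309, 190 and 155 CPM in Th2-like cells and 3057, 2933 and 3510 CPM in Th17-like cells. For these 3 genes replicate 1 was the highest of the Th2-like values, the reverse of its place for the type 2 genes.

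Other regulators were less apart than Il13 and Il17a. Maf (log2 fold -0.55) and Rora (-0.24), both part of the Th17 programme, were lower in Th2-like cells in all 3 replicates but within the fold limit. Tbx21, the Th1 regulator, was at -0.10 and did not keep 1 direction. Ikzf2, which encodes Helios, a factor linked to thymus-derived regulatory T cells, had 56.3, 64.3 and 53.6 CPM in Th2-like cells and 22.4, 29.8 and 30.3 CPM in Th17-like cells, with no overlap. Il10 had 19.6, 28.5 and 39.8 CPM in Th2-like cells and 148, 128 and 150 CPM in Th17-like cells, a log2 fold of -2.16 ± 0.14 (SE), so this suppressive cytokine was on the Th17-like side. Ccr6 had 167, 64.8 and 46.7 CPM in Th2-like cells and 55.0, 40.8 and 29.2 CPM in Th17-like cells (log2 fold 0.94 ± 0.17, SE), with overlap between the sides across replicates.

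**Figure D1:**
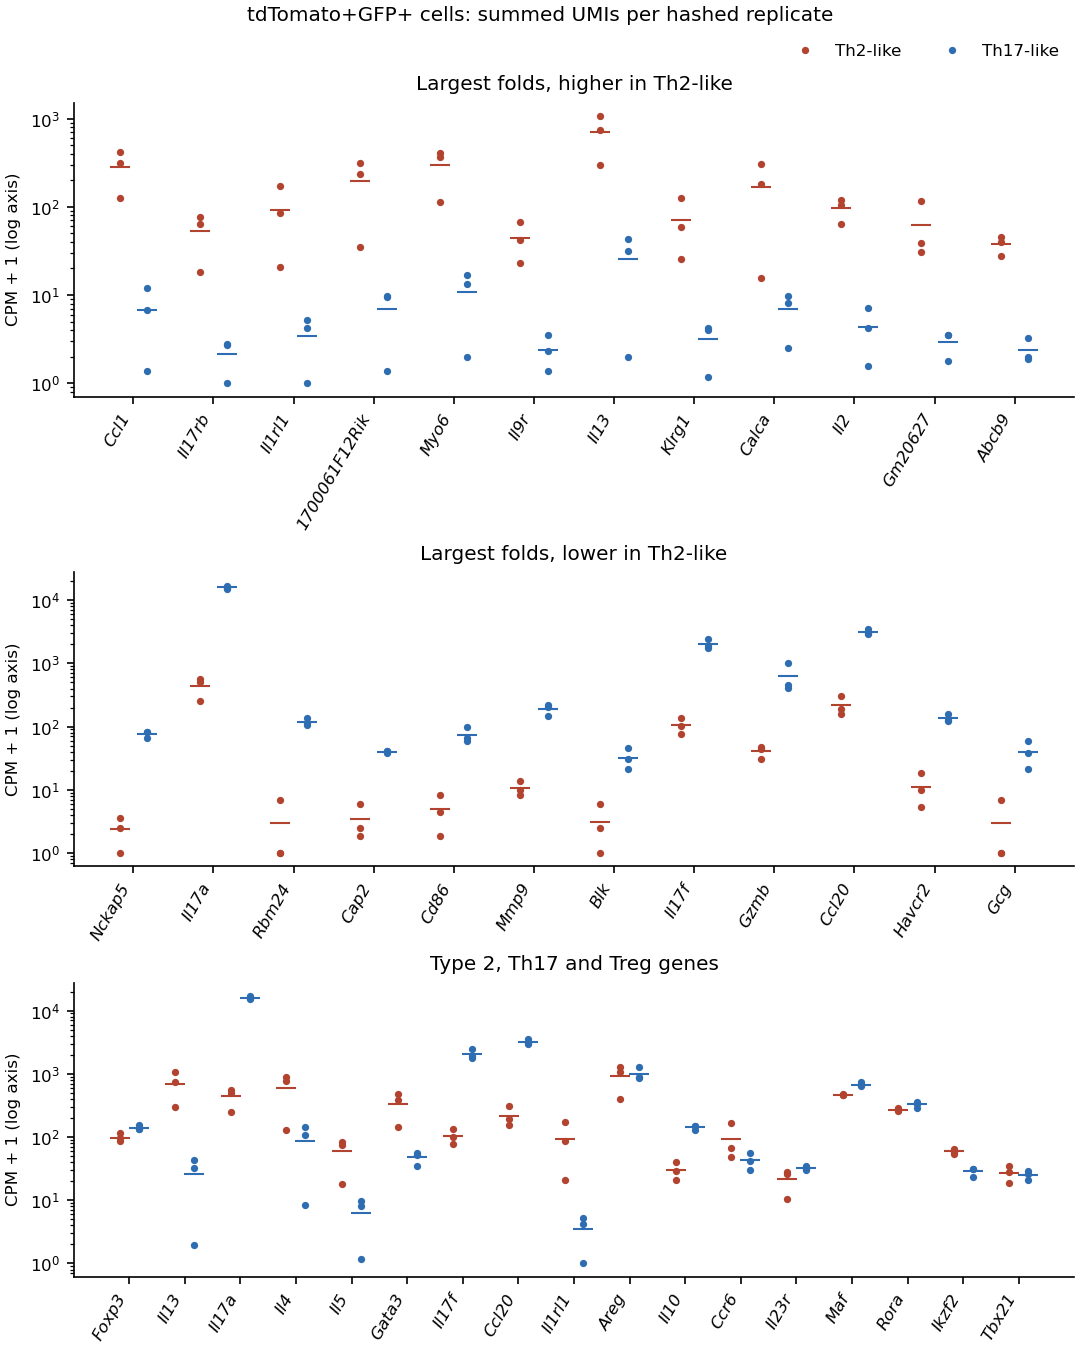
CPM + 1 on a log axis for each of the 3 hashed replicates of Th2-like (left, red) and Th17-like (right, blue) tdTomato+GFP+ cells, with a bar at the mean; the panels show the 12 largest folds in each direction and the type 2, Th17 and Treg genes. Il13 separates the sides with a wide spread among Th2-like replicates (299 to 1067 CPM), Il17a with a narrow spread among Th17-like replicates (15189 to 16956 CPM), and Areg and Tbx21 overlap.

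Genes with the largest folds took in further type 2 genes and others that define neither fate. Besides Il13, Il1rl1 and Il17rb, the 12 highest in Th2-like cells were Ccl1, 1700061F12Rik, Myo6, Il9r, Klrg1, Calca, Il2, Gm20627 and Abcb9, with log2 folds between 4.56 and 5.54. Ccl1, a ligand of CCR8, was the highest, at 125, 416 and 312 CPM in Th2-like cells and 0.386, 11.1 and 5.77 CPM in Th17-like cells. Calca, which encodes the neuropeptide CGRP, had 14.7, 180 and 307 CPM in Th2-like cells and 1.54, 8.85 and 7.21 CPM in Th17-like cells. Il2, the T cell growth factor that Foxp3 is known to repress, had 63.7, 120 and 104 CPM in Th2-like cells and 0.579, 6.05 and 3.25 CPM in Th17-like cells. Both genes separated the sides in every replicate, and Calca in replicate 1 stood closest to the Th17-like level.

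Besides Il17a, Il17f and Ccl20, the 12 lowest in Th2-like cells were Nckap5, Rbm24, Cap2, Cd86, Mmp9, Blk, Gzmb, Havcr2 and Gcg, with log2 folds between -5.41 and -3.71. Gzmb, the cytotoxic protease granzyme B, had 46.5, 29.5 and 42.4 CPM in Th2-like cells and 414, 453 and 1001 CPM in Th17-like cells. Cd86, a costimulatory ligand best known from antigen-presenting cells, had 7.35, 3.44 and 0.864 CPM in Th2-like cells and 97.8, 64.7 and 57.7 CPM in Th17-like cells. Mmp9, a matrix protease, had 7.35, 8.84 and 12.97 CPM in Th2-like cells and 146, 206 and 220 CPM in Th17-like cells. Havcr2, the inhibitory receptor TIM-3, had 17.1, 8.84 and 4.32 CPM in Th2-like cells and 157, 128 and 123 CPM in Th17-like cells. None of these 4 overlapped between the sides. Gcg, the glucagon precursor gene of gut endocrine cells, stood at 36.6, 57.2 and 20.2 CPM in Th17-like cells, and 12 UMIs of it were seen in Th2-like cells, all in replicate 2.

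Over all tested genes 4.41% were higher in Th2-like cells and 3.91% lower, the background for the lists that follow. Of the type 2 list, 10 of 16 tested genes were higher in Th2-like cells and 0 lower, with a median log2 fold of 2.42. Epas1, a hypoxia-inducible factor, averaged 133 ± 83.1 CPM in Th2-like cells and 7.79 ± 5.68 CPM in Th17-like cells (SD, n = 3 each). Il4ra (-0.78) and Furin (-0.77) of the list were lower in Th2-like cells within the fold limit. Of the Th17 list, 0 of 21 were higher and 10 lower, with a median of -0.91, and Il22 (0.11 ± 0.76, SE), the epithelial barrier cytokine, was not apart. Both lists were drawn up with earlier results of these cells known and hold genes that may have led the clustering, so their counts describe it.

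Regulatory T cell genes split between the fates, with 5 of 20 higher and 6 lower (median -0.27). Klrg1 (4.73) and Ebi3 (1.58) were higher in Th2-like cells, while Sdc4 (-3.46), Entpd1 (-2.51), which encodes the ectonucleotidase CD39, and Ctla4 (-1.30) were lower. Ctla4, an inhibitory receptor on which regulatory T cells rely, averaged 1381 ± 65.0 CPM in Th2-like cells and 3414 ± 229 CPM in Th17-like cells (SD, n = 3 each). Of 10 inhibitory receptor genes 2 were higher and 5 lower, among them Lag3, at 146 ± 31.5 CPM in Th2-like cells and 660 ± 27.2 CPM in Th17-like cells (SD, n = 3 each).

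Genes of naive and central memory cells stood on the Th2-like side, with 8 of 11 higher and 0 lower (median 1.62). Il7r, the survival receptor for IL-7, averaged 733 ± 178 CPM in Th2-like cells and 155 ± 26.6 CPM in Th17-like cells, and Ccr7, which guides cells to lymph nodes, averaged 331 ± 134 CPM in Th2-like cells and 41.5 ± 14.3 CPM in Th17-like cells (SD, n = 3 each). S1pr1 (3.25) and Tcf7 (2.20) behaved likewise. Tfh genes had 4 of 8 higher and 2 lower, with Slamf6 (2.25) and Btla (2.02) higher and Il21 (-2.41) lower.

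Th1 and cytotoxic genes had 4 of 14 higher and 4 lower: Ccl5 (3.26) and Cxcr3 (3.02) were higher in Th2-like cells, and Gzmb (-4.07) and Il12rb2 (-2.57) lower. Of 22 chemokine receptor and homing genes 7 were higher and 4 lower, with S1pr1 and Cxcr3 highest and Ccr1 (-3.45), a receptor for inflammatory chemokines, lowest. Of 24 cytokine receptor genes 4 were higher and 3 lower. Other effector cytokines had 7 of 18 higher and 3 lower. Il6, of these, had 67 UMIs in Th2-like cells and 5 in the far more numerous Th17-like cells, and Csf2 did not keep 1 direction.

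The remaining lists held fewer genes apart than those above, most of them still above the 8.32% of all genes. Only oxidative phosphorylation, cholesterol synthesis and heat shock lay below that share. T cell receptor activation genes had 3 of 18 higher and 0 lower, with Nr4a2 (2.64) and Myc (2.63) higher and Egr1 (-0.71) and Cd69 (-0.65) within the limit. Glycolysis had 2 of 17 higher and 1 lower: Hk2 (2.50), the inducible hexokinase, and Pdk1 (1.99) were higher in Th2-like cells and Slc2a3 (-1.46) lower. Oxidative phosphorylation had 0 of 26 apart, with a median of -0.07. Cholesterol synthesis had 0 of 19 higher and 1 lower (median -0.51), lipid handling 0 of 10 higher and 1 lower, and heat shock 0 of 12 apart. Cell cycle genes had 1 of 20 higher and 4 lower, AP-1 and stress genes 1 of 14 higher and 1 lower, interferon genes 2 of 15 higher, and TGF-beta response genes 2 of 11 higher.

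**Figure D2:**
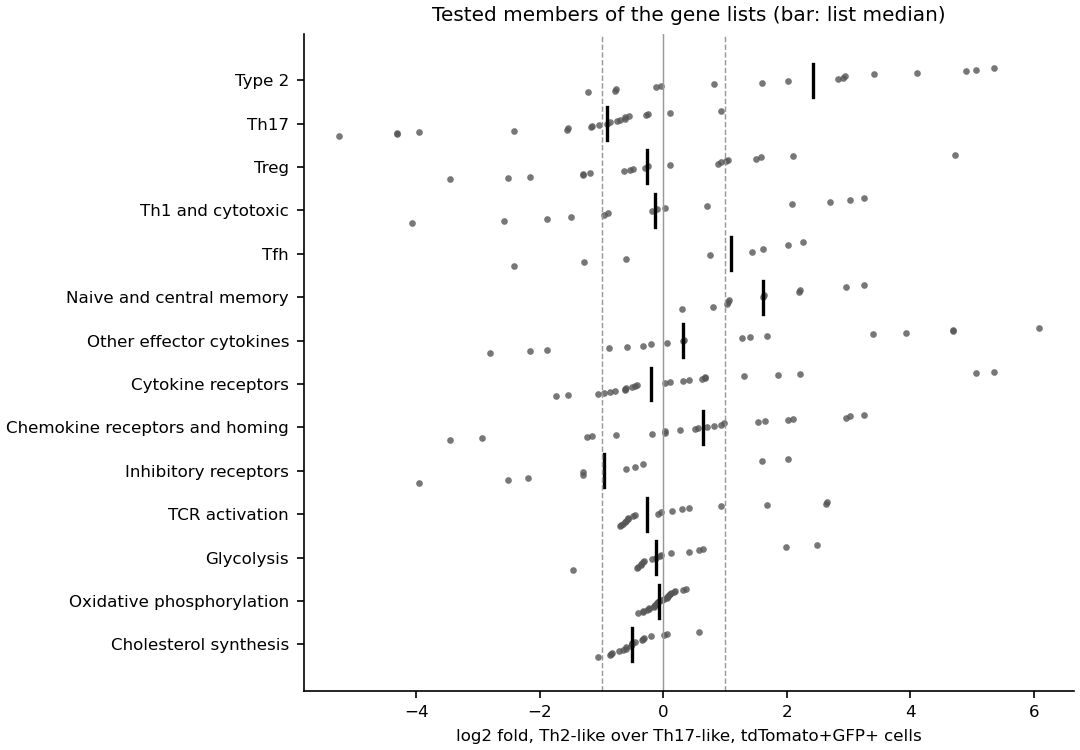
Log2 fold, Th2-like over Th17-like, of the tested genes of 14 gene lists in tdTomato+GFP+ cells; each point is a gene, the bar is the median of the list and dashed lines mark a fold of 2. The type 2 list has its median at 2.42 and the Th17 list at -0.91, while oxidative phosphorylation genes lie close to 0.

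Transcripts of other cell types were measured beside these groups, and their part in the results was not tested. Summed markers of B and plasma cells had 106, 98.5 and 115 CPM in Th2-like cells and 58.0, 67.7 and 39.0 CPM in Th17-like cells, with 1 of 4 tested markers higher (Ighm, 3.33), 1 lower, and 1 of the 8 at 0 UMIs. Myeloid markers had 288, 250 and 311 CPM in Th2-like cells and 405, 419 and 401 CPM in Th17-like cells, with 0 of 5 apart. Gamma delta markers had 121, 128 and 92.8 CPM in Th2-like cells and 288, 316 and 241 CPM in Th17-like cells, with 1 of 3 lower, Tcrg-C1. Epithelial markers stayed at or below 9.67 CPM in Th2-like cells and 15.4 CPM in Th17-like cells, with 0 of 1 tested apart, and CD8 markers at or below 5.98 and 6.16 CPM, with 0 of 1 apart. Innate-like T markers had 26.6, 43.3 and 66.5 CPM in Th2-like cells and 8.94, 12.1 and 19.7 CPM in Th17-like cells, with 1 of 3 higher (Slc7a8). Stromal markers had 510, 52.9 and 50.9 CPM in Th2-like cells and 39.2, 30.1 and 29.7 CPM in Th17-like cells, with 0 of 1 apart; in replicate 1 a single one of the 98 Th2-like cells held 193 of these UMIs. The eosinophil list had 1 gene in the count table, at 0 UMIs.

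All 5 Th17-like clusters had more Il17a and Ccl20 and less Il13 than cluster 0, and they differed in amount. Il17a averaged 419 CPM in cluster 0, against 23202, 9789, 7890, 49640 and 11396 CPM in clusters 1, 2, 3, 12 and 13. Ccl20 averaged 210 CPM in cluster 0, against 3108, 2065, 1721, 8604 and 19360 CPM in the same clusters. Cluster 12 thus had the most Il17a and cluster 13 the most Ccl20. Il13 averaged 665 CPM in cluster 0, against 17.6, 25.0, 47.5, 1.14 and 3.15 CPM in clusters 1, 2, 3, 12 and 13. Cluster 8, which the comparison leaves out, had 274 ± 231 CPM of Il13, 295 ± 164 CPM of Gata3 and 1101 ± 247 CPM of Il17a (SD, n = 3), so its Il17a lay between cluster 0 and the Th17-like clusters.

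Cells with transcripts of both signature cytokines were few, and in Th17-like cells Il13 UMIs were few altogether. An Il13 UMI was found in 26.8 ± 18.1% of Th2-like cells and 1.17 ± 0.677% of Th17-like cells (SD, n = 3 each), and after thinning to 2000 UMIs in 22.6% and 0.781%. In cluster 9 it was found in 0 of 53 cells, which allows a share of up to 5.66%. An Il17a UMI was found in 35.0 ± 8.87% of Th2-like cells and 98.1 ± 0.634% of Th17-like cells, and after thinning in 26.4 ± 10.0% and 97.8% (SD, n = 3 each). In cluster 9, with a median of 3301 UMIs against 4072 in Th2-like cells, the Il17a share was 25.2 ± 7.14%, and 16.6 ± 7.63% after thinning. Per replicate the Il17a share was 42.9, 36.6 and 25.4% in Th2-like cells and 33.3, 20.0 and 22.2% in cluster 9, with overlap. The cluster 9 shares rest on 6, 20 and 27 cells. The part of free RNA in the Il17a share was not tested.

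Gata3 UMIs were found in 47.4% of Th2-like cells and 14.5 ± 1.75% of Th17-like cells (SD, n = 3), against 19.6% in cluster 9. The Th17-like share of Gata3 is below that of cluster 9 and the Th2-like share above it. Whether cluster 9 expresses Gata3 itself was not tested, so no level is read from the Th17-like share. Both Il13 and Il17a UMIs were present in 73 of 876 Th2-like cells (8.33%), whose median depth was 5097 UMIs. The same held for 70 of 5665 Th17-like cells (1.24%), with a median of 6063 UMIs against 3507 for all Th17-like cells, so these cells were deeper than the rest. Of the other Th2-like cells, 198 had Il13 alone, 222 had Il17a alone and 383 had neither. In all, 271 of the 876 Th2-like cells had an Il13 UMI and 295 had an Il17a UMI. Of the 72 Th17-like cells with an Il13 UMI, 70 also had Il17a. Whether the 2 cytokines exclude each other in a cell was not tested.

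The next comparison asked whether the fate difference itself is the same inside and outside the tdTomato+GFP+ gate. An interaction of side and gate was tested with edgeR's quasi-likelihood test over 12 sums, paired within replicates. An effect of the lane that scales the counts of both sides alike cancels in it. Counts that free RNA adds need not cancel, and their part was not tested. The gate was not used to make the clusters, but the Th17-like side mixed its clusters differently in the 2 gates. Cluster 1 gave 2096 of the 5665 Th17-like cells in the tdTomato+GFP+ gate and 273 of 1123 in the tdTomato-GFP- gate. Cluster 2 gave 1599 and 476 of these cells in the same order. The part of this mix in the interactions was not tested. Of 9971 genes tested, 145 had a positive interaction (1.45%) and 93 a negative one (0.933%), 2.39% in all, at an adjusted p below 0.05. A positive interaction means a higher signed Th2-like over Th17-like log2 fold in tdTomato+GFP+ cells. Among the called genes 9 were receptor segments. The fate folds of the 2 gates had the same sign in 128 of the 228 genes with a fold in both and opposite signs in 100.

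Gate effects were called more often in Th17-like than in Th2-like cells, among the interaction genes and over all genes alike. Of the 238 genes, 223 could be tested for a gate effect on both sides. Among them edgeR called one in Th17-like but not in Th2-like cells for 130, in Th2-like but not in Th17-like cells for 25, on both sides for 18 and on neither for 50. The backgrounds were 231 of 9064 genes with a gate effect in Th2-like cells (2.55%) and 1129 of 10075 in Th17-like cells (11.2%), and an effect of the lane cannot be told from one of the gate for effects within a side. With the replicate block these counts were 363 and 1726, and the split of the 223 genes was 149, 29, 29 and 16 in the same order.

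Cd5, an inhibitory coreceptor whose level follows the strength of receptor signalling, shared the smallest adjusted p with Cdkn1a and Ero1l. In Th2-like cells it had 355, 425 and 397 CPM in the tdTomato+GFP+ gate, against 454, 416 and 469.5 CPM in the tdTomato-GFP- gate. In Th17-like cells it had 285, 295 and 306 CPM in the tdTomato+GFP+ gate, against 656, 721 and 729 CPM in the tdTomato-GFP- gate. The Th17-like groups did not overlap, the Th2-like groups did, and the interaction was 1.07 ± 0.10 (SE; edgeR adjusted p = 7.63e-07). Cdkn1a, the cell cycle inhibitor p21, had 168, 155 and 118 CPM in Th2-like cells of the tdTomato+GFP+ gate, against 125, 142 and 133 CPM in those of the tdTomato-GFP- gate. Th17-like cells had 117, 146 and 122 CPM of it in the tdTomato+GFP+ gate, against 343, 347 and 292 CPM in the tdTomato-GFP- gate, for an interaction of 1.45 ± 0.13 (SE).

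Ero1l, an oxidase of the endoplasmic reticulum (interaction 1.51 ± 0.14, SE), Ramp3 (1.40 ± 0.14), a partner of calcitonin-family receptors, and Themis (1.43 ± 0.16), a signalling protein of the T cell receptor, also had positive interactions. Each was higher in Th2-like than in Th17-like cells of both gates, and more so in the tdTomato+GFP+ gate. Ramp3 averaged 250.3 ± 38.8 CPM in Th2-like cells of the tdTomato+GFP+ gate, against 254 ± 56.2 CPM in those of the tdTomato-GFP- gate, and 56.2 ± 12.3 CPM in tdTomato+GFP+ Th17-like cells, against 146 ± 26.4 CPM in those of the tdTomato-GFP- gate (SD, n = 3 each). Actn2, an actinin, had an interaction of 1.45 ± 0.15 (SE) and opposite fate folds, 0.57 in the tdTomato+GFP+ gate and -0.88 in the tdTomato-GFP- gate. Cxcr6, the receptor for CXCL16, and Capg, an actin capping protein, were lower in Th2-like cells of both gates, less so in tdTomato+GFP+ cells, with interactions of 0.78 ± 0.09 and 0.78 ± 0.08 (SE).

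Of the 8 genes with the smallest adjusted p and a negative interaction, 7 were higher in tdTomato+GFP+ than in tdTomato-GFP- Th17-like cells. Spry1, an inhibitor of receptor signalling, averaged 69.9 ± 12.9 CPM in Th2-like cells of the tdTomato+GFP+ gate, against 54.2 ± 16.1 CPM in those of the tdTomato-GFP- gate, and 143 ± 23.2 CPM in tdTomato+GFP+ Th17-like cells, against 34.9 ± 14.4 CPM in those of the tdTomato-GFP- gate (SD, n = 3 each). Its interaction was -1.55 ± 0.17 (SE). Mmp9 averaged 9.64 ± 2.89 CPM in Th2-like cells of the tdTomato+GFP+ gate, against 16.1 ± 7.47 CPM in those of the tdTomato-GFP- gate, and 189.9 ± 39.4 CPM in tdTomato+GFP+ Th17-like cells, against 49.5 ± 17.1 CPM in those of the tdTomato-GFP- gate (SD, n = 3 each), an interaction of -2.77 ± 0.29 (SE). Itgav, an integrin chain that helps to activate TGF-beta (-1.10 ± 0.14, SE), Agfg1 (-1.12 ± 0.15) and the tetraspanin gene Tspan32 (-1.33 ± 0.17) had fate folds below 0 in the tdTomato+GFP+ gate and above 0 in the other. Mmd (-1.06 ± 0.15) and Gm45716 (-1.48 ± 0.19) overlap each other on the plus strand of chromosome 11, so their reads may be shared and they count as 1 uncertain signal.

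Fcer1g, an Fc receptor chain, differed from these in that the gate effect lay in Th2-like cells. It had 12.1, 27.3 and 25.7 CPM in Th2-like cells of the tdTomato+GFP+ gate, against 67.0, 77.3 and 109.9 CPM in those of the tdTomato-GFP- gate, without overlap. Th17-like cells had 25.2, 21.7 and 24.1 CPM of it in the tdTomato+GFP+ gate, against 16.99, 28.3 and 31.1 CPM in the tdTomato-GFP- gate, with overlap and an interaction of -1.67 ± 0.24 (SE). Over the 16 genes the adjusted p of the edgeR test lay between 7.63e-07 and 0.000174. In 12 alternative fits the 16 genes kept their sign, and 13 to 16 of them kept an adjusted p below 0.05. Without replicate 2 the count over all genes was 63 and without replicate 3 it was 110, and both times all 16 genes stayed past the threshold.

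Among the fate and regulatory lists 3 of 16 type 2, 5 of 21 Th17 and 5 of 20 Treg genes had an interaction, against 2.39% of all genes, but the signature cytokines had none past the threshold. Foxp3 had one: its fate fold was -0.54 in tdTomato+GFP+ cells and 1.03 in tdTomato-GFP- cells, where it averaged 77.2 ± 7.46 CPM in Th2-like and 34.8 ± 18.1 CPM in Th17-like cells (SD, n = 3 each). The interaction of -1.58 ± 0.21 (SE; edgeR adjusted p = 0.00044) lies in the gene whose reporter set the gate. Of the type 2 list 2 of 16 genes had a positive and 1 a negative interaction, among them Il17rb (3.03 ± 0.62, SE) and Il4ra (-0.98 ± 0.15). Il13 was not past the threshold at 2.49 ± 1.18 (SE; edgeR adjusted p = 0.53), and in tdTomato-GFP- cells had 322, 328 and 346 CPM on the Th2-like and 69.2, 0 and 143 CPM on the Th17-like side. Of the Th17 list 4 of 21 were positive and 1 negative: Il23r (1.55 ± 0.33, SE), Ccr6 (1.43 ± 0.27), Il17re and Ltb4r1 were positive and Il21r was negative. Il17a, at 1.44 ± 0.36 (SE), missed the threshold with an edgeR adjusted p of 0.21. In Th2-like cells it averaged 436 ± 162 CPM in the tdTomato+GFP+ gate, against 121 ± 25.8 CPM in the other (SD, n = 3 each). In Th17-like cells it averaged 15916 ± 924 and 12449 ± 279 CPM in the same order. The part of free RNA in the interactions of this list was not tested.

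Of the Treg list 1 of 20 was positive and 4 negative, with Entpd1 (-1.72), Tnfrsf9 (-0.95) and Il2ra (-0.76), the high-affinity IL-2 receptor chain, beside Foxp3. Hk2 had an interaction of 2.18 ± 0.41 (SE), with fate folds of 2.50 in the tdTomato+GFP+ gate and 0.33 in the tdTomato-GFP- gate, and 3 of the 17 glycolysis genes were positive and 1 negative. Cd40lg (1.16) and Tnfsf11 (0.95), membrane-bound ligands of helper T cells, were positive as well.

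**Figure D3:**
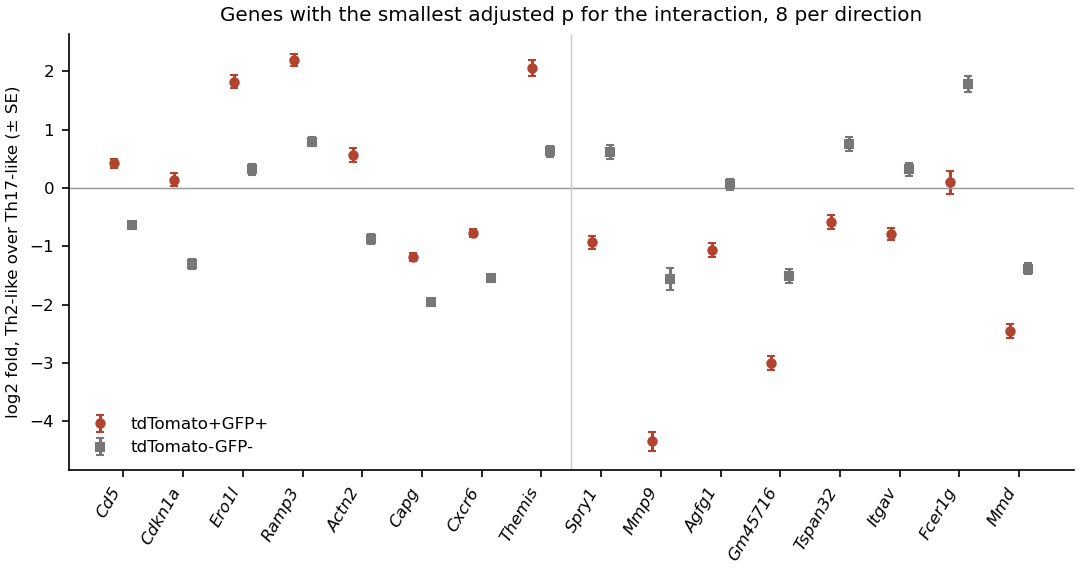
Log2 fold, Th2-like over Th17-like, with SE, in tdTomato+GFP+ cells (red circles) and tdTomato-GFP- cells (grey squares) for the 8 genes with the smallest adjusted p in each direction of the interaction. Cd5 and Actn2 have folds of opposite sign in the gates, Mmp9 lies at -4.34 against -1.56, and Fcer1g at 0.10 against 1.78.

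The receptor library gave the clonal relation of the fates. Clonotypes with cells on both sides numbered 29, 60 and 25 in replicates 1, 2 and 3 of the tdTomato+GFP+ gate and 36, 16 and 12 in those of the tdTomato-GFP- gate, or 114 of 1200 and 64 of 1326 clonotypes. In the tdTomato+GFP+ gate they held 39 of 77 Th2-like cells in replicate 1 (50.6%, 95% Wilson interval 39.7 to 61.5%), 113 of 329 in replicate 2 (34.3%, 29.4 to 39.6%) and 53 of 185 in replicate 3 (28.6%, 22.6 to 35.5%). These intervals treat cells as independent, although all cells of a clonotype count as shared or not together. The largest clone gave 10.3, 12.4 and 26.4% of these Th2-like cells in replicates 1, 2 and 3. In the tdTomato-GFP- gate the shared clonotypes held 13.1, 9.20 and 9.02% of the Th2-like cells. The ranges did not overlap, with means of 37.9 ± 11.4% and 10.4 ± 2.32% (SD, n = 3 each), and the exact permutation test gave p = 0.1, the smallest it can give.

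The number of cells sampled on the other side sets how many clones can be seen, and the tdTomato+GFP+ gate had many more Th17-like cells. With the Th17-like side of each replicate sampled to 181 cells, the smallest number, the expected share of Th2-like cells in shared clonotypes was 34.6, 16.8 and 10.8% in the tdTomato+GFP+ gate and 8.24, 8.49 and 9.02% in the tdTomato-GFP- gate. The means were 20.7 and 8.59% (exact permutation p = 0.1), still without overlap, but replicate 3 lay close to the tdTomato-GFP- values. This alternative was chosen after the data were seen. Seen from the other side, 34.3 ± 18.8% of tdTomato+GFP+ and 30.7 ± 9.35% of tdTomato-GFP- Th17-like cells (SD, n = 3 each) were in shared clonotypes (exact permutation p = 0.8). With the Th2-like side sampled to 77 cells these shares were 25.6 and 10.1% (exact permutation p = 0.4). The Morisita-Horn index, which is 0 for no overlap and 1 for identical clone shares, was 0.296, 0.384 and 0.0715 in tdTomato+GFP+ and averaged 0.105 in tdTomato-GFP- cells (exact permutation p = 0.3).

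Shared clones mostly had more Th17-like than Th2-like cells, as did the sampled cells of the gate. Of the 114, 87 had more cells on the Th17-like side, 11 on the Th2-like side and 16 as many on both. They held 205 Th2-like and 1427 Th17-like cells, out of 591 and 4019 with a receptor pair. The tdTomato-GFP- gate had 1403 Th2-like and 839 Th17-like cells with a pair. Its 64 shared clonotypes split into 27, 18 and 19 in the same order. In the tdTomato+GFP+ gate the smaller side was 1 cell in 92 clonotypes and 2 cells in 12, so most of them rest on a single cell of 1 side. With at least 2 cells on each side 22 clonotypes were left. Beta junctions alone gave 142 clonotypes and amino acid pairs gave 114, as nucleotide pairs did.

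Cluster 0 also shared clones with clusters outside the comparison, which were set beside the Th17-like ones without a test. Its Morisita-Horn index averaged 0.383 with cluster 8, 0.364 with cluster 4 and 0.357 with cluster 5. It averaged 0.238, 0.258, 0.230, 0.169 and 0.1504 with clusters 1, 2, 3, 12 and 13, and 0.00184 with cluster 9. Within the Th17-like side the clusters with the most Il17a and the most Ccl20, 12 and 13, had the lowest means, and also the fewest cells.

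Hashtag assignment can be checked against the clones. Pairs shared between the gates numbered 19, 23 and 33 for replicates of the same number and 0 to 3 for replicates of different number. Within the tdTomato+GFP+ gate replicates 1 and 2 shared 13 pairs, replicates 2 and 3 shared 12, and replicates 1 and 3 shared 1. Within the tdTomato-GFP- gate these numbers were 21, 9 and 3 in the same order. Pairs thus crossed replicates within both lanes. With a main hashtag share of at least 0.95, replicate 1 kept 1 Th2-like cell and 0 with a receptor pair, so for that replicate the overlap could not be had at this stringency. Over the other replicates 61 clonotypes were then shared, and 21.0% of Th2-like cells were in them.

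Th17-like clones were larger. Cells in clonotypes of at least 2 cells made up 41.7 ± 4.89% of Th2-like and 89.0 ± 6.57% of Th17-like cells of the gate (SD, n = 3 each). The largest clone of a replicate held 5.67 ± 1.71% of Th2-like and 9.66 ± 2.69% of Th17-like cells (SD, n = 3 each), or 10.7 and 123 cells on sides sampled to unequal depth. A second alpha chain was found in 8.74% of Th2-like and 12.3% of Th17-like cells. All 3 measures had the same direction in every replicate, with an exact sign permutation p of 0.25, the smallest that 3 pairs allow. Junction lengths of alpha chains averaged 13.6 amino acids in Th2-like and 13.7 in Th17-like clonotypes (exact sign permutation p = 1.0).

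Of 23 V segments used by at least 3% of the clonotypes of a side, 9 kept 1 direction in the 3 replicates. TRBV20 was used by 18.0, 6.03 and 6.50% of Th2-like clonotypes and 5.43, 4.64 and 5.38% of Th17-like clonotypes, and TRBV26, the segment of clonotype 3, by 5.71% of Th2-like and 3.10% of Th17-like clonotypes. TRBV15, the segment of clonotypes 2 and 5, was used by 0, 5.60 and 4.88% of Th2-like and 3.10, 7.95 and 7.91% of Th17-like clonotypes. Replicate 1 had 61 Th2-like clonotypes. The segments named here are among the 9, so the exact sign permutation p of each was 0.25, the smallest that 3 pairs allow.

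**Figure D4:**
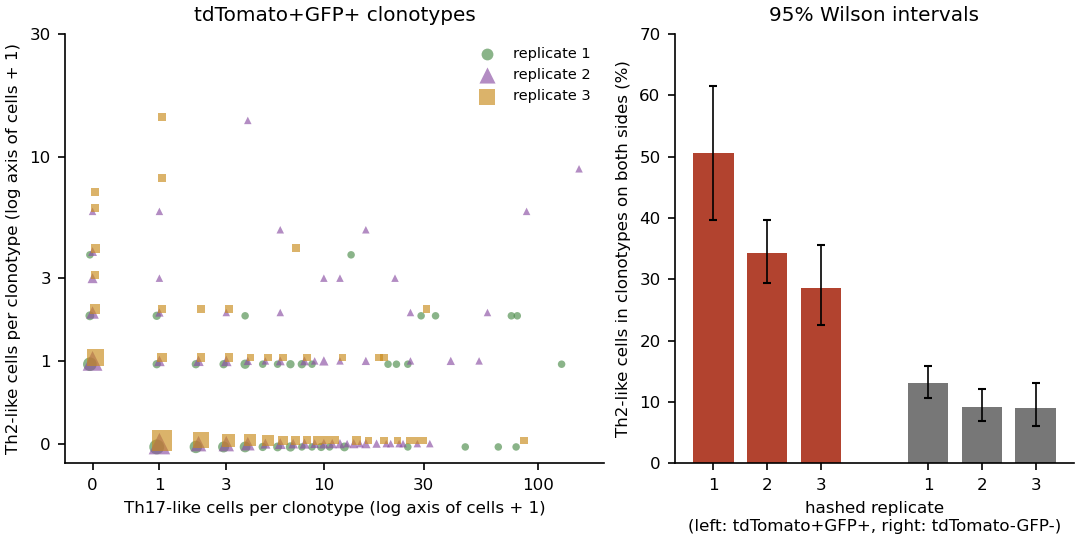
Left, Th2-like against Th17-like cells per tdTomato+GFP+ clonotype on log axes of cells + 1, with symbols by replicate whose size grows with the number of clonotypes at that point. Right, the share of Th2-like cells in clonotypes with cells on both sides per hashed replicate. Error bars are 95% Wilson intervals that treat cells as independent. The share was 28.6 to 50.6% in tdTomato+GFP+ cells (red) and 9.02 to 13.1% in tdTomato-GFP- cells (grey). Most shared clonotypes have 1 Th2-like cell.

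Within each of the 5 clones Il17a was lower in the Th2-like cells. Il13 was seen in few cells of clonotypes 1 to 4 and in most cells of clonotype 5. The sides come from clustering of the same transcripts, so these orders are a description. In clonotype 1, an Il17a UMI was found in 3 of 9 Th2-like and 153 of 154 Th17-like cells, and Il17a summed to 474 CPM in the Th2-like and 18383 CPM in the Th17-like cells. Its single Il13-bearing Th2-like cell held all 16 of that side's Il13 UMIs. Clonotypes 2, 3 and 4 had no Il13 UMI in their 6, 5 and 5 Th2-like cells, although Il17a was lower there than on their Th17-like side, at 1225, 152 and 651 CPM in Th2-like and 15994, 15398 and 9339 CPM in Th17-like cells. Clonotype 5, the only one of the 5 with more Th2-like cells, had Il13 UMIs in 11 of 14 Th2-like and 4 of 4 Th17-like cells, and Gata3 UMIs in 12 of 14 and 4 of 4. Its Th17-like cells, from clusters 2 and 3, had Il17a UMIs in 3 of 4 cells, against 5 of 14 Th2-like cells.

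Over all 114 clonotypes Il17a was mostly lower on the Th2-like side, Gata3 had no clear order and Il13 mostly had no UMI to compare. These orders too describe sides made from the same transcripts. Il17a was higher on the Th2-like side in 2 clonotypes and on the Th17-like side in 111. Ccl20 was higher on the Th2-like side in 6 and on the Th17-like side in 91. Gata3 was higher on the Th2-like side in 41 and on the Th17-like side in 38, with 35 at 0 on both. Il13 had no UMI on either side in 92 clonotypes, and was higher on the Th2-like side in 14 and on the Th17-like side in 8. With mostly 1 Th2-like cell per clonotype, a missing UMI there does not show a missing transcript.

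Summed over the shared clonotypes alone, most named genes that could be fitted kept their sign. Of the 37 named genes 24 could be fitted there, and 23 kept the sign they had over all cells; Il23r, at a log2 fold of 0.01, was the exception. The fitted genes include all 12 with the largest folds lower in Th2-like cells, but of the 12 highest only Il13. In 6 of the 24, Gcg, Foxp3, Areg, Il23r, Maf and Rora, the 3 replicates did not share 1 direction. Il13 had 7.02, 639 and 1744 CPM in Th2-like and 1.84, 40.7 and 0 CPM in Th17-like cells of these clonotypes, a log2 fold of 4.84 ± 1.12 (SE). Il17a had a log2 fold of -4.70 ± 0.32 and Gata3 of 2.75 ± 0.37 (SE). Large clones weigh more in these sums than in the counts per clonotype. Clonotype 5 of replicate 2 alone held 167 Il13 UMIs in Th2-like and 98 in Th17-like cells. It also held 68 Gata3 UMIs in Th2-like cells. Of 6047 genes tested in the shared clonotypes, 145 were higher and 147 lower.

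This raised the question whether Th2-like cells of shared clonotypes resemble the other Th2-like cells, a split chosen after the data were seen. It rests on the receptor library and on the cluster of a cell's clone mates. Cells of both kinds had been placed in the same cluster, and were compared by edgeR's quasi-likelihood test, paired by replicate, over 39, 113 and 53 cells of shared clonotypes and 38, 216 and 132 other cells with a receptor pair. Of 4865 genes, 57 were higher (1.17%) and 96 lower (1.97%) in cells of shared clonotypes, 153 in all (3.14%), at an adjusted p below 0.05. Of these, 152 kept 1 direction in all 3 replicates. The result leans on replicate 2, the largest: without it edgeR called 0 genes of 3309 tested, 261 had an unadjusted p below 0.05, and all 143 of the 153 genes still tested kept their sign, while without replicate 1 it called 142 and without replicate 3 it called 203. DESeq2 called 18 genes, 17 of them among the 153, and restriction to clonotypes of at least 2 cells left 42.

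Some Th17 genes rose in Th2-like cells with Th17-like clone mates. Of the Th17 list 5 of 16 tested genes rose, against 1.17% of all genes, 0 fell and 11 did not pass, with a median log2 fold of 0.72, against 0.00 over all genes. Ccl20 had 565, 328 and 300.4 CPM in cells of shared clonotypes and 170, 83.6 and 67.8 CPM in the other cells, a log2 fold of 1.96 ± 0.17 (SE; edgeR adjusted p = 4.66e-08). Its values did not overlap between the kinds of clone. Ccl20 UMIs were found in 43.6, 23.0 and 22.6% of cells of shared clonotypes and 15.8, 10.2 and 8.33% of the other cells, at median depths of 3803, 4071 and 4375 against 4229, 4551.5 and 4148.5 UMIs.

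Ccr6 (1.42 ± 0.25, SE), Aqp3 (1.14 ± 0.24) and Il17f (1.03 ± 0.24) rose as well. Il17a had 940, 704 and 331 CPM in cells of shared clonotypes and 138, 328 and 98.9 CPM in the other cells, with a log2 fold of 1.65 ± 0.31 (SE) that did not pass (edgeR adjusted p = 0.078). Among inhibitory receptors 3 of 7 rose: Lag3 (1.88 ± 0.18, SE), Tigit (0.97 ± 0.19) and Ctla4 (0.76 ± 0.10). Lag3 had 259, 368 and 199 CPM in cells of shared clonotypes and 56.6, 106 and 53.1 CPM in the other cells, without overlap. These genes are also on the Th17-like side of the fate comparison, apart from Ccr6. Shared clonotypes hold at least 2 cells by definition, and other clonotypes can hold 1. With clonotypes of at least 2 cells only, Ccl20, Ccr6 and Lag3 still passed. Il17f and Ctla4 then did not (edgeR adjusted p = 0.71 and 0.13).

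Among the genes that fell, Il2 and Ccl5 had the largest folds of those with the smallest adjusted p. Il2 had 13.6, 6.42 and 0 CPM in cells of shared clonotypes and 145, 163 and 147 CPM in the other cells, a log2 fold of -4.64 ± 0.40 (SE; edgeR adjusted p = 4.66e-08). Ccl5, a chemokine of effector and memory T cells, had 0, 6.42 and 0 CPM in cells of shared clonotypes and 151, 93.2 and 280 CPM in the other cells (-5.31 ± 0.46, SE). Il5 had 0, 29.97 and 48.6 CPM in cells of shared clonotypes and 44.0, 124 and 104 CPM in the other cells (-1.78 ± 0.32, SE). The kinds of clone did not overlap for Il2 or Ccl5 and overlapped for Il5 across replicates. Dusp10 (-1.64 ± 0.18, SE), a phosphatase of stress kinases, and Ly6a (-1.03 ± 0.13), which encodes Sca-1, fell too. Ribosomal protein genes had 54 of 80 lower and 0 higher, with a median of -0.28. With clonotypes of at least 2 cells only, Ccl5, Il5, Dusp10 and Ly6a still passed, and Il2 could not be tested. The ribosomal genes Rps27a, Rps19 and Rps20 then did not pass (edgeR adjusted p = 0.16, 0.22 and 0.14).

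Most type 2 genes did not pass the test between these cells. Of the list 1 of 16 rose (Igfbp7, 2.11 ± 0.38, SE) and 1 fell (Il5), with a median of -0.40. Il13 had 6.81, 621 and 1683 CPM in cells of shared clonotypes and 503, 952 and 983 CPM in the other cells (log2 fold -0.36 ± 0.95, SE; edgeR adjusted p = 0.97), Gata3 was at -0.44 ± 0.18 (SE; edgeR adjusted p = 0.34) and Il1rl1 at 0.03 ± 0.35 (SE; edgeR adjusted p = 1.00). The error for Il13 spans differences of either sign. Foxp3 had 136, 105 and 119 CPM in cells of shared clonotypes and 94.3, 80.4 and 69.6 CPM in the other cells, without overlap, but its log2 fold of 0.53 ± 0.22 (SE) did not pass (edgeR adjusted p = 0.29). Of the Treg list 3 of 14 rose (Ctla4, Capg and Tigit) and 2 fell (Tnfrsf4 and Izumo1r).

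Hashtags mark droplets with cells of different replicates, not doublets within a replicate, whose part in this split was not tested directly. With cells of 1 alpha and 1 beta junction in the middle 90% of depths, 140 genes were called, 125 of them among the 153. A second alpha chain was found in 15.4, 4.42 and 0% of Th2-like cells of shared clonotypes and 5.26, 11.1 and 9.85% of the others, with no common direction. The part of free RNA and of cells near the border of the clusters was not tested.

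**Figure D5:**
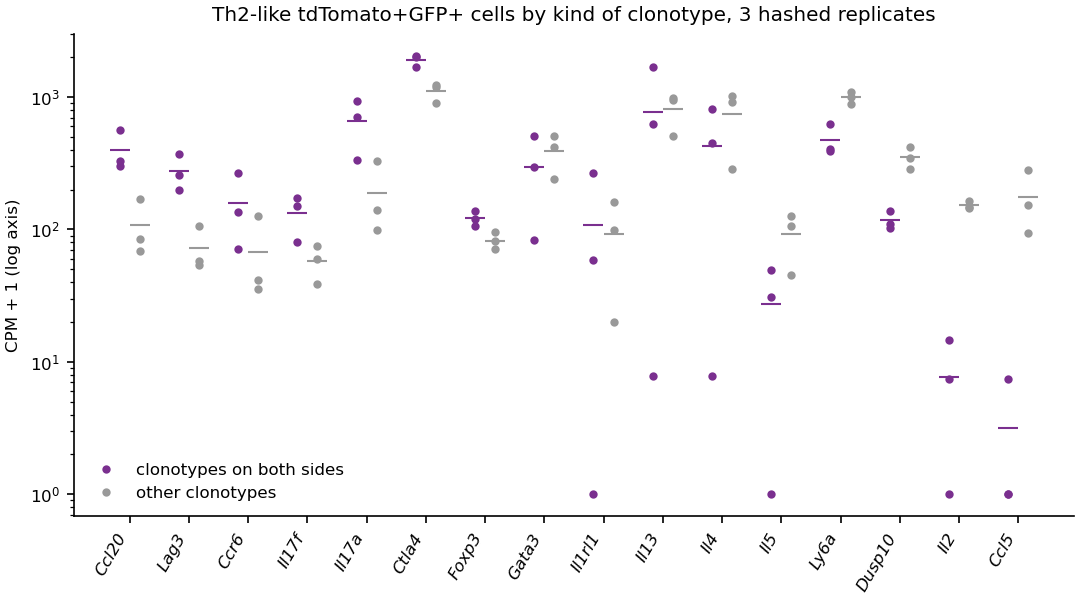
CPM + 1 on a log axis of 16 genes in Th2-like tdTomato+GFP+ cells, for cells of clonotypes with cells on both sides (left, purple) and of other clonotypes (right, grey), with 1 point per hashed replicate and a bar at the mean. Ccl20, Lag3, Il2 and Ccl5 do not overlap between the kinds of clone, while Il13, Il4 and Gata3 do.

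The same split of Th17-like cells found few genes. Of 9451 tested, edgeR called 5 higher (0.0529%) and 3 lower (0.0317%) in the cells of shared clonotypes, 8 in all (0.0846%), with 535 at an unadjusted p below 0.05. Rrm2 and Birc5, genes of dividing cells, had log2 folds of 1.65 ± 0.26 and 2.29 ± 0.36 (SE); they were the 2 of 21 tested cell cycle list genes that rose. Hist1h1b, a histone gene outside that list, had a log2 fold of 1.44 ± 0.28 (SE). Dusp4 (0.49) and Tmsb10 (0.17) were the other genes that rose, and Mmp9 (-0.50), Lgals3 (-0.43) and Apoe (-0.48) fell. Il17a (-0.03 ± 0.03, SE; edgeR adjusted p = 0.97) and Gata3 (-0.12 ± 0.14, SE; edgeR adjusted p = 0.99) did not pass. Il13 had 1.82, 40.5 and 0 CPM in cells of shared clonotypes and 0.538, 8.85 and 17.4 CPM in the other cells. Whether the split differs between the fates was not tested.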

How the data were processed

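The data are single-cell transcript, hashtag and receptor libraries of sorted mouse colonic CD4 T cells, with 1 lane per gate. The deposited count table holds whole UMI counts per cell and gene, and the deposited cell table gives the fraction of hashtag counts on the main hashtag, the replicate and the cluster of each cell. The tools named in the submitters' processing notes are Scanpy 1.7.2 and Cell Ranger (its version and the filters are not given in the sources used here), and the builds named there are GRCm38 and mm10. The 3 hashtag features (43.8% of UMIs), 4721 cells without a replicate and 216 assigned cells without a cluster were left out. Of 17878 receptor rows 17863 matched a cell. No doublet caller was run; cells with counts of several hashtags fall among those left out.

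Raw counts were summed per gate, replicate and side and fitted with edgeR 4.0.16 in R 4.3.3 (glmQLFit robust, glmQLFTest, two-sided, TMM, filterByExpr with a minimum count of 10, Benjamini-Hochberg adjustment over all tested genes at 0.05), with the hashed sample (gate and replicate) as a block; gate effects within a side were fitted without it. CPM are scaled to TMM-adjusted totals, those of clusters, clones and marker sums to plain totals. SE is the log2 fold over the square root of F. DESeq2 1.42.0 was an alternative. The fits were tested on simulated data. The block follows from the design: the Th2-like and Th17-like sums of a replicate are cells of the same hashed sample, and deviations of the same number correlated at 0.187, 0.151 and 0.200 between the sides. Between gates the labels do not say whether a number marks an animal, although clonotypes were shared mostly between equal numbers; deviations of the same number correlated at 0.161, 0.0677 and 0.121 in Th2-like and 0.102, 0.0317 and 0.149 in Th17-like cells. That the triplicates are separate animals is not stated, so p-values measure the spread between hashed samples.

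Shares of cells with a UMI were thinned to 2000 UMIs by the hypergeometric mean; 839 of 876 Th2-like, 5390 of 5665 Th17-like and 51 of 53 cluster 9 cells were deep enough. Permutation tests were exact (scipy 1.17.1), and Wilson intervals cover 95% with cells taken as independent. Gene positions and germline segments are those of the GRCm38 annotation. Named genes are the 12 largest folds per direction at a mean of at least 30 CPM on the higher side with 1 direction in 3 replicates, genes of the type 2, Th17 and Treg programmes (17 are given; a few genes are not reported here), the 8 smallest adjusted p per direction of the interaction, the members of the lists with the largest folds, and the 5 clonotypes with the most cells on the smaller side; other genes and list members that the text names, and those of the within-side split, were chosen after their values were seen. Members and lists were chosen with earlier results of these data known.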

Additional observations from a re-analysis of the deposited data

Results flagged for a closer look

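In these 16 genes the Th2-like over Th17-like log2 fold differed between the tdTomato+GFP+ and the tdTomato-GFP- gate by edgeR's test of the interaction (adjusted p below 0.05 over 9971 genes). The signed log2 fold was higher in tdTomato+GFP+ cells for Cd5 (interaction 1.07), Cdkn1a (1.45), Ero1l (1.51), Ramp3 (1.40), Actn2 (1.45), Capg (0.78), Cxcr6 (0.78) and Themis (1.43). It was lower there for Spry1 (-1.55), Mmp9 (-2.77), Agfg1 (-1.12), Gm45716 (-1.48), Tspan32 (-1.33), Itgav (-1.10), Fcer1g (-1.67) and Mmd (-1.06). In size, the folds of Capg and Cxcr6 were smaller in tdTomato+GFP+ cells and those of Mmp9, Gm45716 and Mmd larger. In 12 of the 16 a gate effect was called in Th17-like and not in Th2-like cells, in 2 (Capg and Fcer1g) in Th2-like and not in Th17-like cells, and in 2 on both sides. Over all tested genes a gate effect was called for 11.2% in Th17-like and 2.55% in Th2-like cells. Mmd and Gm45716 overlap on the same strand. The Th17-like side mixed its clusters differently in the tdTomato+GFP+ and the tdTomato-GFP- gate, and the part of this mix was not tested.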

How the results depend on the processing

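No gene counted as apart between the fates among those named, and none of the 16 interaction genes, turned its direction under the alternatives run; Il23r, within the fold limit at -0.62, came to 0.01 in shared clonotypes. In the within-side split of Th2-like cells 144 of the 145 called genes still tested kept their sign in clonotypes of at least 2 cells, and Il1rl1, which had not passed, came to -0.49 there. In place of 830 genes apart between the fates, 1799 were counted with no filter on low counts, 439 with 1 cell per clonotype, 274 with a hashtag share of at least 0.95, 456, 545 and 450 with cluster 2, 12 or 13 alone as the Th17-like side, and 292 with cells of shared clonotypes only; leaving out a replicate gave 930 to 1021. In place of 238 interaction genes, 392 were called with no filter (225 of them among the 238), 93 with DESeq2 (76), 99 with 1 cell per clonotype (72), 116 with the hashtag limit (69) and 63 to 246 without 1 replicate. The replicate block is part of the fits of fate and interaction; with no replicate block the interaction count was 128, and 3 of the 16 named genes lost their call. For gate effects a fit with the replicate block gave 363 in place of 231 in Th2-like and 1726 in place of 1129 in Th17-like cells. The within-side counts were 153 in Th2-like cells, against 42 in clonotypes of at least 2 cells, 73 with no replicate block, 18 with DESeq2 and 0 to 203 without 1 replicate, and 8 in Th17-like cells, against 0 with no replicate block (373 genes at an unadjusted p below 0.05), 1 with DESeq2, 4 with single receptor pairs at middle depths and 10 to 20 without 1 replicate. The 114 shared clonotypes became 22 with at least 2 cells on each side, 61 with the hashtag limit and 54 to 89 without 1 replicate, and the 37.9% of Th2-like cells in them became 13.5, 21.0 and 20.7% with at least 2 cells, the hashtag limit and depth matching, and 31.5 to 42.5% without 1 replicate. The Th2-like share of 12.7% became 31.3% with 1 cell per clonotype, and thinning to 1000 in place of 2000 UMIs took the Il17a share to 19.4 from 26.4% in Th2-like and 96.4 from 97.8% in Th17-like cells, and the Foxp3 share to 9.09 from 16.7% in Th2-like and 13.2 from 23.3% in Th17-like cells. The causes of these shifts were not tested, except that fewer cells, replicates or tested genes enter several of them. Replicate 1 limits the type 2 genes, with 98 Th2-like cells and the lowest hashtag shares, and lone cells on the smaller side limit the clonotype counts.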
